A study of Mus musculus with 12 samples.

Results

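Ppargc1a, Ppargc1b, Tfam, Nrf1, Gabpa, Esrra and Ppara encode the PGC-1 coactivators and the main regulators of mitochondrial biogenesis that work with them. They were taken by gene symbol from the deposited expression table, which held all 7 of them among 15397 genes. PGC-1α and PGC-1β, the products of Ppargc1a and Ppargc1b, do not bind DNA themselves but dock on transcription factors and recruit the machinery that opens chromatin and starts transcription. Among their partners are the nuclear receptors ERRα (Esrra) and PPARα (Ppara) and the factors NRF1 (Nrf1) and GABPα (Gabpa, also called NRF-2α), which switch on nuclear genes for respiratory chain subunits and, through Tfam, the copying and reading of mitochondrial DNA. In the brain PGC-1α is known for its high expression in inhibitory neurons, and lowered PGC-1α has been described in the striatum of patients and mouse models of Huntington's disease.

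RNA was sequenced from microdissected striatum of C57BL/6 mice in 4 groups of n = 3 mice. R6/2 mice carry a transgene for the start of mutant human huntingtin, driven by the human huntingtin promoter, and serve as a rapid model of Huntington's disease. The groups were R6/2 mice on PLX3397, R6/2 mice on vehicle, wild-type (WT) mice on PLX3397 and WT mice on vehicle. PLX3397 blocks Csf1r, the receptor on which microglia depend for survival, and was given in chow at 275 ppm from 7 to 11 weeks of age, so every mouse was about 11 weeks old at the end. The comparisons ask what the transgene, the drug and their combination do to striatal RNA.

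Reads counted in genes came to 18902120 to 24293208 per library, and levels are given as deposited, in log2 CPM (log2 of read counts relative to library size). The 7 microglial markers summed to 22.0 to 31.6 CPM in R6/2 PLX3397 libraries, 336 to 464 CPM in R6/2 vehicle, 21.4 to 36.8 CPM in WT PLX3397 and 365 to 427 CPM in WT vehicle, with Siglech at 0 reads in R6/2 PLX3397 library 1 and WT PLX3397 library 3. The 12 markers of medium spiny neurons, the main striatal cell type, were all detected in every library and summed to 656 to 2235 CPM, 637 to 1558 CPM, 6846 to 16242 CPM and 3277 to 9641 CPM in the same group order. Some libraries stood apart in markers of neighbouring tissue. The 6 cortical neuron markers summed to 25.9 and 21.3 CPM in R6/2 PLX3397 libraries 1 and 2 and to 66.2 CPM in WT PLX3397 library 1, against 213 to 1340 CPM elsewhere. The 4 measured choroid plexus markers of 5 listed summed to 4525 CPM in R6/2 vehicle library 1 and 1036 CPM in WT PLX3397 library 1, against 44.8 to 106 CPM elsewhere. In bulk tissue fewer cells of a type and less RNA per cell cannot be told apart. The 4 markers of oligodendrocyte precursors summed to 150 to 188 CPM in R6/2 PLX3397, 162 to 214 CPM in R6/2 vehicle, 74.8 to 109 CPM in WT PLX3397 and 205 to 217 CPM in WT vehicle libraries, so WT PLX3397 was below the other groups without overlap. The part of cell markers in the differences below was not tested beyond a cortical marker covariate and the leaving out of libraries. All p-values measure the spread between these mice.

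Libraries also differed in how strongly transcript GC content marked the genes that were high or low in them. This was measured as a GC index, Spearman's rho across genes between transcript GC content and the deviation of each gene in a library from its mean over all libraries. The index was -0.53 to -0.20 in R6/2 PLX3397 libraries, -0.01 to 0.31 in R6/2 vehicle, 0.25 to 0.45 in WT PLX3397 and -0.38 to 0.04 in WT vehicle. It therefore separated WT PLX3397 libraries from WT vehicle libraries and from R6/2 PLX3397 libraries without overlap. R6/2 PLX3397 and R6/2 vehicle libraries did not overlap either, but there the index was lower on the drug. The same index for merged exon length was 0.26 to 0.37 in R6/2 PLX3397 and -0.42 to 0.27 in R6/2 vehicle libraries. It was -0.59 to -0.13 in WT PLX3397 and 0.02 to 0.34 in WT vehicle libraries. The 7 genes span nearly the whole range of GC content. Gabpa and Ppargc1a have GC-poor transcripts (41.4% and 41.7% GC, percentiles 8.1 and 8.9 of all genes with annotation), Tfam has 44.9%, Nrf1 and Ppara have 51.1% and 51.5%, and Ppargc1b and Esrra have GC-rich ones (57.8% and 61.8%, percentiles 87.6 and 97.8). Calls and list counts below are therefore given also after a trend with GC content and merged exon length was taken out of every library, called GC and length adjustment here.

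The promoters of Ppargc1a, Gabpa and Esrra are shown because these genes differed between pairs of groups. That of Tfam is shown because it is a classical target of NRF1 and GABP. Those of Ppara and of Nrf1, which differed only averaged over drug, are not printed. RefSeq promoter windows on GRCm38.p6 were matched for 6 of the 7 genes, and the 250 bases before a transcription start are printed 5′ to 3′ in lower case, with a matched motif in capitals. That of Ppargc1a lies at chr5:51567726-51567975 (minus strand) and holds ACGTCA, the reverse complement of the cAMP response element core TGACGT, 50 bases before the start. That of Gabpa lies at chr16:84834874-84835123 (plus strand) and holds CTTCCGG, the reverse complement of the GABPA core CCGGAAG, 93 bases before its start. That of Tfam lies at chr10:71238045-71238294 (minus strand) and holds CCGGAAG 47 bases before the start, and that of Esrra lies at chr19:6921809-6922058 (minus strand) and holds the NRF1 core GCATGCGC 34 bases before the start.
Ppargc1a: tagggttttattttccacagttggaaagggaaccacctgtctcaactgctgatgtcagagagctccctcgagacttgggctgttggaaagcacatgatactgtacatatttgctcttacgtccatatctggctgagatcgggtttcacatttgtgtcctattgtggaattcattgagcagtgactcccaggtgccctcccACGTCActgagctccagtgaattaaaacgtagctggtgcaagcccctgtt
Gabpa: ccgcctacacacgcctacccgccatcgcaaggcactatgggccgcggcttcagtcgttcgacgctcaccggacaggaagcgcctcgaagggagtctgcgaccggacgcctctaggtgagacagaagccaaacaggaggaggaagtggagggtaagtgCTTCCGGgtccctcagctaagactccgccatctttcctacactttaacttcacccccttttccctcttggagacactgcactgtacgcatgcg
Tfam: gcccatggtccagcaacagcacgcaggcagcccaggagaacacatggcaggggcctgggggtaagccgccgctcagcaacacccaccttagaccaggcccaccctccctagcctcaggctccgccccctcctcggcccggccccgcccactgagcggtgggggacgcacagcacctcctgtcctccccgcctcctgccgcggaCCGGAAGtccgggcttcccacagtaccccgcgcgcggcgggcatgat
Esrra: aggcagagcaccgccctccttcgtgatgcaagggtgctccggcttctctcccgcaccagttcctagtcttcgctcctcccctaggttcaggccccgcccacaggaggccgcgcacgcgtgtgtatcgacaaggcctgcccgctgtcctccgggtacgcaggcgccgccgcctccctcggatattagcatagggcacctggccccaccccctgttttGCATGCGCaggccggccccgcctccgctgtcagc

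These motifs were searched on both strands in windows of 300 bases, from 250 before to 50 after each start. The Ppara window held 2 overlapping NRF1 cores, 1 on each strand, at 31 and 29 bases before the start, and neither Nrf1 window held any of the 4 motifs searched. Among 32851 mouse promoter windows of the same length, 2.71% held the NRF1 core, 8.86% the GABPA core, 7.51% the cAMP response element core and 4.72% the ERR element AAGGTCA, which was in none of the windows of the 6 genes. A match describes letters, not binding, and the promoter of Ppargc1b is not shown here.

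All 7 genes are protein coding. On GRCm38.p6 they lie on chromosome 5 (Ppargc1a, 51454249 to 52115853), chromosome 18 (Ppargc1b, 61291445 to 61400756), chromosome 10 (Tfam, 71225468 to 71238328), chromosome 6 (Nrf1, 30047985 to 30153458), chromosome 16 (Gabpa, 84834891 to 84863783), chromosome 19 (Esrra, 6910977 to 6922048) and chromosome 15 (Ppara, 85734910 to 85806851). Gabpa overlaps Atp5j, Esrra overlaps Trmt112 and Mir6990, and Ppargc1b overlaps Mir378a and 2 predicted genes, Gm46627 and Gm52354. These overlaps are of whole gene spans, and shared exons were not checked. Whether reads were counted by strand, and how reads in shared stretches were treated, is not given in the sources used here. Counts of the 3 genes may thus hold some reads of such neighbours or lack some of their own.

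Per kb of exon, Esrra was the most abundant of the 7 in every group and Ppara the least abundant. Esrra averaged 22.4 ± 3.25 CPM per kb in R6/2 PLX3397 libraries, 26.0 ± 4.28 in R6/2 vehicle, 39.2 ± 2.07 in WT PLX3397 and 28.2 ± 3.22 in WT vehicle (SD, n = 3 each), with no library overlapping the next gene. Tfam came next in all 4 groups, at 9.18 to 10.2 CPM per kb. In R6/2 PLX3397 and in WT vehicle libraries Gabpa (8.52 ± 2.29 and 8.38 ± 1.47) and Ppargc1a (7.64 ± 0.986 and 8.32 ± 2.33) followed close behind Tfam, with overlapping libraries. In R6/2 vehicle and WT PLX3397 libraries Gabpa (5.68 ± 0.673 and 4.36 ± 1.33) and Ppargc1a (5.15 ± 1.10 and 3.77 ± 0.989) were instead on the level of Nrf1 (5.37 ± 0.578 and 4.81 ± 0.352), again with overlap. The sister coactivator Ppargc1b, at 3.05 ± 0.215, 2.14 ± 1.11, 2.55 ± 2.47 and 3.04 ± 0.718 CPM per kb in the 4 groups, overlapped Ppara (1.93 ± 0.211, 1.65 ± 0.453, 1.48 ± 0.915 and 2.38 ± 0.499) in all groups but R6/2 PLX3397. With the length of the longest transcript in place of all exons Nrf1 came to 6.22 to 8.31 CPM per kb, the largest shift among the 7 genes.

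**Figure D1:**
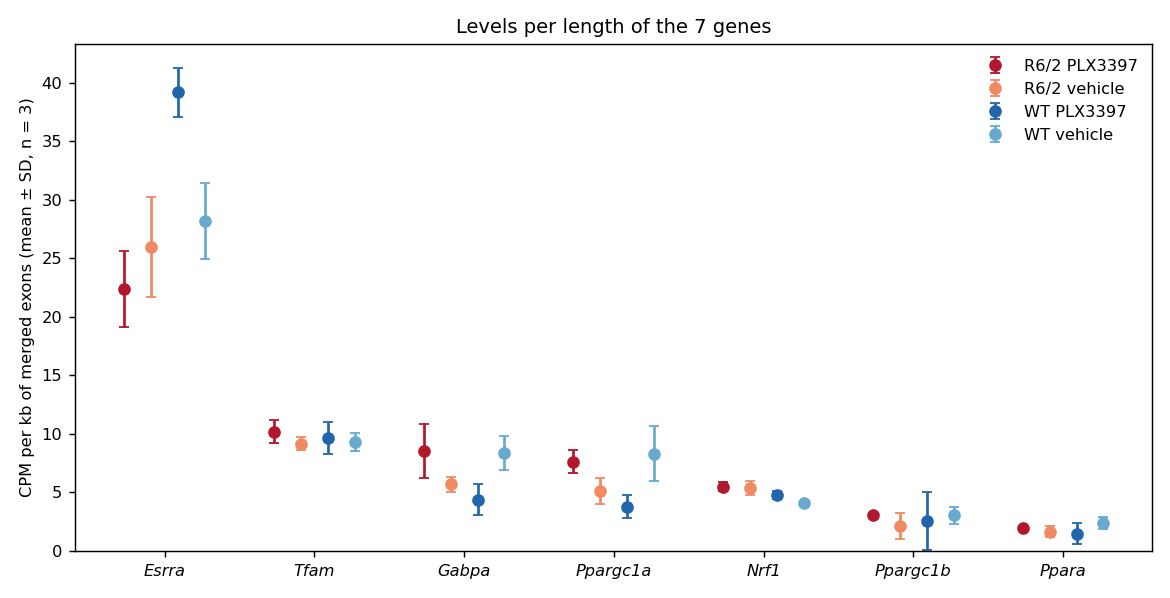
Level of each of the 7 genes per kb of merged exon (vertical axis, CPM per kb, linear from 0) in the 4 groups, with points at the mean and bars at ± SD of n = 3 libraries. Esrra stands above the other 6 genes in every group, at 22.4 to 39.2 CPM per kb, and Ppara is lowest at 1.48 to 2.38.

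On PLX3397, 2 of the 7 genes were lower in WT mice than on vehicle, the coactivator gene Ppargc1a and Gabpa, and none was called for the drug in R6/2 mice. Calls are an adjusted p under 0.05 from limma with Benjamini-Hochberg adjustment over all 15397 genes, and 14.2% of all genes were called in WT PLX3397 against WT vehicle (8.3% as lower). Between R6/2 PLX3397 and R6/2 vehicle, 0 of 7 were called by limma or by limma-voom, with 2 at an unadjusted p under 0.05 (1.1% of all genes called). The median difference of the 7 genes was -0.69 for the drug in WT mice and 0.25 in R6/2 mice, beside 0.00 and -0.01 over all genes. The drug effect itself differed between the genotypes (its change in R6/2 minus its change in WT, the interaction) for 2 of the 7, again Ppargc1a and Gabpa, both with a positive interaction, and for 17.0% of all genes (9.29% positive). Markers of oligodendrocyte precursors were also lowest in WT PLX3397 libraries, and their part in these values was not tested. Averaged over genotype, 0 of 7 differed between PLX3397 and vehicle by limma or limma-voom, with 0 at an unadjusted p under 0.05 (1.26% of all genes called).

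Between the genotypes on vehicle, 0 of the 7 genes were called by limma or limma-voom, with 3 at an unadjusted p under 0.05, and 2.11% of all genes were called. On PLX3397, 3 of 7 were called, with Ppargc1a and Gabpa higher and Esrra lower in R6/2 than in WT mice, and 35.0% of all genes were called (17.1% higher, 17.9% lower). The share of members called there, 3 of 7, is near that of all genes. Averaged over drug, Nrf1 was higher and Esrra lower in R6/2 mice, 2 of 7 beside 22.4% of all genes (10.5% higher, 11.9% lower). The median of the 7 was -0.54 on vehicle and 0.55 on PLX3397, beside 0.01 and -0.00 over all genes. These comparisons share groups, so their calls are not independent of each other. Once adjusted for GC and length, 0 of the 7 genes were called in any of the 7 comparisons (counts at an unadjusted p under 0.05 from 0 to 3), while 6.34% of all genes were called between genotypes on vehicle, 24.0% between them on PLX3397, 6.77% for the drug in WT mice, 1.16% for it in R6/2 mice, 2.57% for the interaction, 27.2% between genotypes averaged over drug and 1.49% for the drug averaged over genotype. The median over all genes between genotypes on vehicle was 0.10 after adjustment and 0.01 before it, for the drug in WT mice 0.10 and 0.00, and it shifted less elsewhere.

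**Figure D2:**
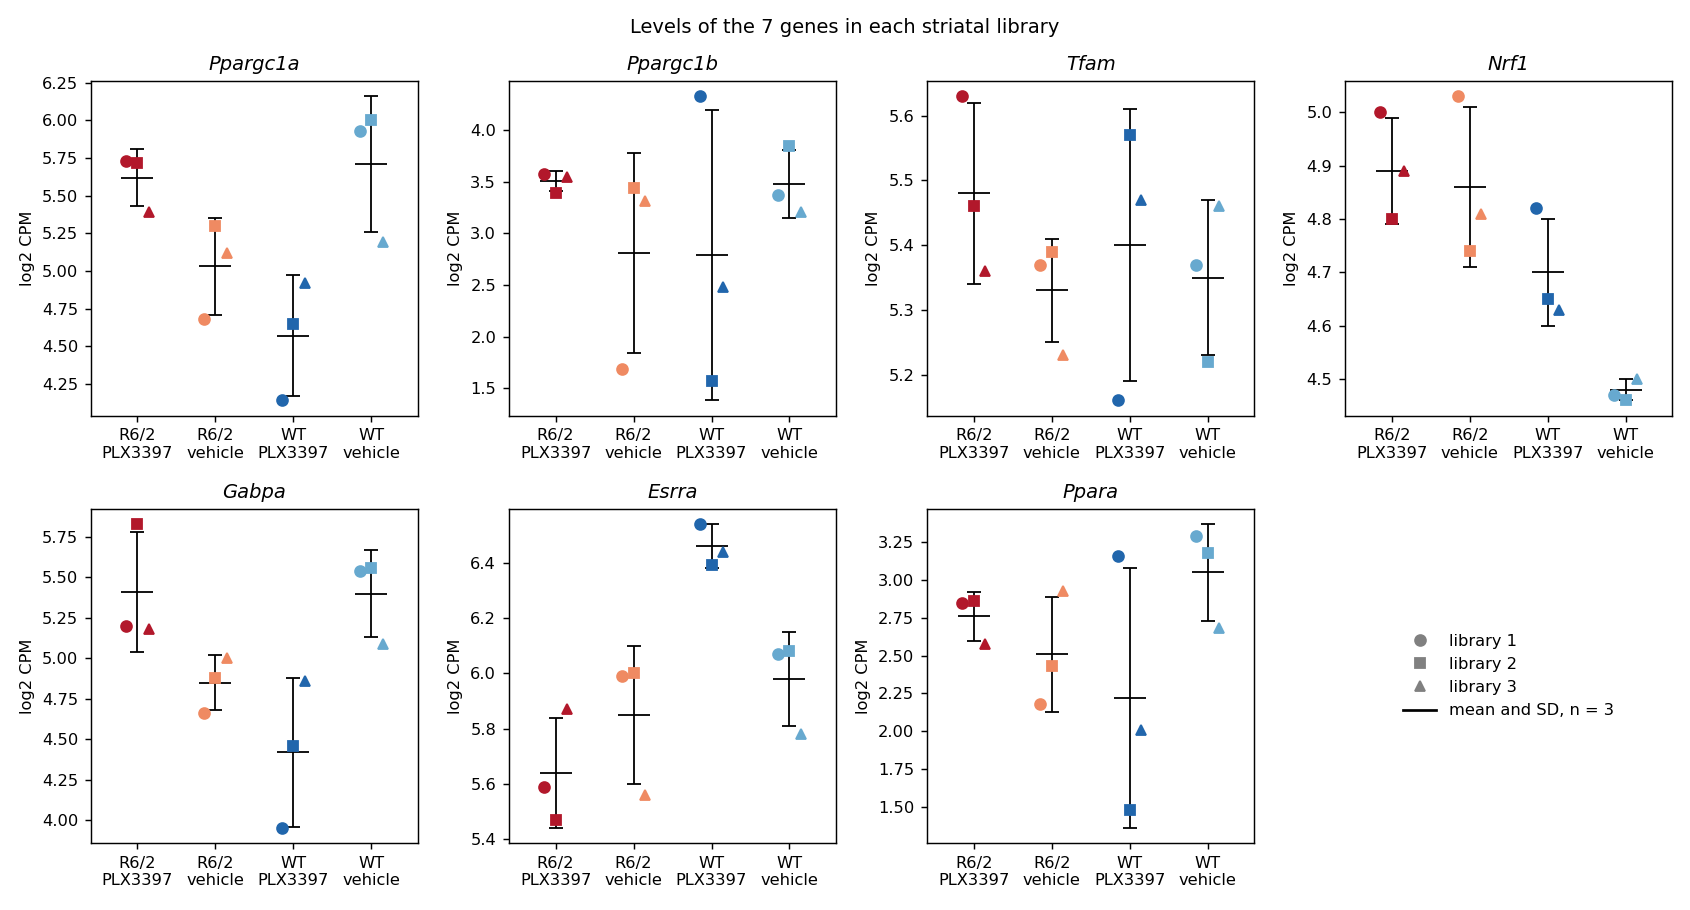
Level of each gene (vertical axis, log2 CPM, with its own range) in every library, with the symbol marking libraries 1 to 3 and lines the mean ± SD of n = 3. Ppargc1a and Gabpa are lowest in WT PLX3397 libraries, Esrra is highest there, and Tfam spans 0.47 log2 units over all 12 libraries.

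Ppargc1a, which encodes the inducible coactivator PGC-1α, was lower on PLX3397 in WT mice, and its response to the drug differed between the genotypes. It was at 5.73, 5.72 and 5.39 log2 CPM among the R6/2 PLX3397 libraries, 4.68, 5.30 and 5.12 in R6/2 vehicle, 4.14, 4.65 and 4.92 in WT PLX3397 and 5.93, 6.00 and 5.19 in WT vehicle. The WT PLX3397 libraries were all below the WT vehicle libraries and below the R6/2 PLX3397 libraries, and the R6/2 PLX3397 libraries were all above the R6/2 vehicle ones. In WT mice it was 2.19-fold lower on PLX3397 (log2 difference -1.13 ± 0.26 SE, limma adjusted p = 0.0214, 3 against 3 mice). In R6/2 mice the drug's difference was 0.58 ± 0.26 (adjusted p = 0.38; 95% interval 0.01 to 1.16), and the interaction was 1.72 ± 0.37 (adjusted p = 0.0182). On PLX3397 it was 2.06-fold higher in R6/2 than in WT mice (1.05 ± 0.26, adjusted p = 0.0122), whereas on vehicle the difference was -0.67 ± 0.26 with overlapping libraries (adjusted p = 0.169).

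Beside these values stands the GC index, with which Ppargc1a correlated at r = -0.953 over the 12 libraries, a description since both come from the same libraries. Adjusted for GC and length, its difference was -0.29 (adjusted p = 0.267) for the drug in WT mice, 0.22 (adjusted p = 0.32) between genotypes on PLX3397 and 0.46 (adjusted p = 0.25) for the interaction. The call for the drug in WT mice was also lost without WT PLX3397 library 2 (adjusted p = 0.0503) or WT vehicle library 1 (0.0953) or 2 (0.0928), and that of the interaction without WT vehicle library 1 (0.053) or 2 (0.0515). Leaving out R6/2 PLX3397 libraries 1 and 2, which were low in cortical markers, leaves 1 library in that group, assumed to vary like the other groups. WT PLX3397 library 1, also low in these markers (66.2 CPM), was kept in that setting. Ppargc1a then differed by 0.82 (adjusted p = 0.247) between genotypes on PLX3397, with an interaction of 1.49 (adjusted p = 0.244), while calls among all genes fell to 237 and 0 of 15397, so a call lost in that setting, here and below, goes with the loss of most calls.

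Ppargc1b, which encodes the related coactivator PGC-1β, was the most variable of the 7 genes, over 2.76 log2 units. It was at 3.58, 3.39 and 3.55 log2 CPM among the R6/2 PLX3397 libraries, 1.69, 3.44 and 3.31 in R6/2 vehicle, 4.33, 1.57 and 2.48 in WT PLX3397 and 3.37, 3.85 and 3.21 in WT vehicle, from 66 to 387 reads. R6/2 vehicle library 1 and WT PLX3397 library 2 were far below the rest, WT PLX3397 library 1 was the highest of all, and all group pairs overlapped. No comparison was called by limma: the difference was -0.69 ± 0.62 for the drug in WT mice (adjusted p = 0.456; 95% interval -2.05 to 0.67), 0.70 ± 0.62 in R6/2 mice (adjusted p = 0.621; -0.66 to 2.06) and -0.67 ± 0.62 between genotypes on vehicle (adjusted p = 0.551; -2.03 to 0.69). After GC and length adjustment these were -0.86 (adjusted p = 0.424), 0.92 (adjusted p = 0.633) and -0.71 (adjusted p = 0.48). R6/2 vehicle library 1 and WT PLX3397 library 1 are those high in choroid plexus markers. Without both, Ppargc1b was lower on PLX3397 in WT mice by limma (-1.46, adjusted p = 0.0116) and higher in R6/2 than in WT mice on PLX3397 (1.49, adjusted p = 0.00419) and averaged over drug (0.69, adjusted p = 0.0287), with an interaction of 1.59 (adjusted p = 0.033). Without WT PLX3397 library 1 alone, the difference between genotypes on PLX3397 (1.49, adjusted p = 0.0352) and the interaction (2.15, adjusted p = 0.0387) were called.

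Esrra, the gene of the orphan nuclear receptor ERRα through which PGC-1α drives respiratory genes, was lower in R6/2 than in WT mice on PLX3397, where Ppargc1a was higher. It was at 5.59, 5.47 and 5.87 log2 CPM among the R6/2 PLX3397 libraries, 5.99, 6.00 and 5.56 in R6/2 vehicle, 6.54, 6.39 and 6.44 in WT PLX3397 and 6.07, 6.08 and 5.78 in WT vehicle. The WT PLX3397 libraries were above all others. On PLX3397 it was 1.76-fold lower in R6/2 than in WT mice (-0.82 ± 0.15, limma adjusted p = 0.0034), and averaged over drug, with 6 libraries a genotype, it was 1.39-fold lower (-0.47 ± 0.11, adjusted p = 0.0123). The drug's difference in WT mice was 0.48 ± 0.15 (adjusted p = 0.0589) and the interaction -0.69 ± 0.22 (adjusted p = 0.0508), both just outside the threshold, and on vehicle the genotypes differed by -0.12 ± 0.15 (adjusted p = 0.663; 95% interval -0.46 to 0.21). The interaction was called without R6/2 vehicle library 3 (adjusted p = 0.0347) or R6/2 PLX3397 library 3 (0.034). After GC and length adjustment the differences between genotypes were -0.24 (adjusted p = 0.319) on PLX3397 and -0.21 (adjusted p = 0.23) averaged over drug, and without R6/2 PLX3397 libraries 1 and 2 they were -0.59 (adjusted p = 0.157) and -0.36 (adjusted p = 0.134). The correlation of Esrra with the GC index was r = 0.677 over the 12 libraries.

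Ppara, the gene of the fatty acid receptor PPARα, had the fewest reads, 62 to 199 per library. It was at 2.85, 2.86 and 2.58 log2 CPM among the R6/2 PLX3397 libraries, 2.18, 2.43 and 2.93 in R6/2 vehicle, 3.16, 1.48 and 2.01 in WT PLX3397 and 3.29, 3.18 and 2.68 in WT vehicle. WT PLX3397 libraries 2 and 3 were below all others and library 1 of that group was among the highest, so the groups overlapped. The drug's difference in WT mice was -0.83 ± 0.38 (limma adjusted p = 0.144; 95% interval -1.66 to -0.01), and the remaining comparisons lay between -0.54 and 1.08 with adjusted p of 0.166 to 0.989. After GC and length adjustment the first was -0.86 (adjusted p = 0.177). Without WT PLX3397 library 1 the drug's difference in WT mice was -1.30 (adjusted p = 0.0204), the genotypes differed by 1.02 on PLX3397 (adjusted p = 0.0211) and the interaction was 1.55 (adjusted p = 0.0219). Ppara and Ppargc1b followed each other over the 12 libraries, with r = 0.856 on deposited values, 0.876 after GC and length adjustment and 0.87 between deviations from group means.

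Nrf1, the gene of the factor that activates respiratory chain genes and Tfam, was higher in R6/2 mice. It was at 5.0, 4.80 and 4.89 log2 CPM among the R6/2 PLX3397 libraries, 5.03, 4.74 and 4.81 in R6/2 vehicle, 4.82, 4.65 and 4.63 in WT PLX3397 and 4.47, 4.46 and 4.50 in WT vehicle. The WT vehicle libraries lay within 0.04 log2 units of each other and below every other library. Averaged over drug, Nrf1 was 1.22-fold higher in R6/2 than in WT mice (0.29 ± 0.08, limma adjusted p = 0.0342, 6 libraries a genotype). On vehicle the difference was 0.38 ± 0.12 with no overlap of libraries (adjusted p = 0.108; 95% interval 0.12 to 0.64), and on PLX3397 it was 0.19 ± 0.12 with overlap (adjusted p = 0.23; -0.07 to 0.46). The drug's difference was 0.22 ± 0.12 in WT mice (adjusted p = 0.213), again with no overlap, and 0.03 ± 0.12 in R6/2 mice (adjusted p = 0.91). The averaged call rested on nearly every library: adjusted p was 0.0547 to 0.0834 without any 1 of R6/2 PLX3397 libraries 1 and 3, R6/2 vehicle libraries 1 and 3, WT PLX3397 libraries 2 and 3 and WT vehicle libraries 1, 2 and 3. Once adjusted for GC and length it was 0.0632 at a difference of 0.25, and the correlation of Nrf1 with the GC index was r = 0.182.

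Gabpa, the gene of the DNA-binding subunit of the ETS factor GABP, had the same pattern of calls as Ppargc1a. It was at 5.20, 5.83 and 5.18 log2 CPM among the R6/2 PLX3397 libraries, 4.66, 4.88 and 5.0 in R6/2 vehicle, 3.95, 4.46 and 4.86 in WT PLX3397 and 5.54, 5.56 and 5.09 in WT vehicle. All 4 pairs of groups were free of overlap, with WT PLX3397 below WT vehicle, R6/2 PLX3397 above R6/2 vehicle, and R6/2 below WT on vehicle but above it on PLX3397. In WT mice it was 1.96-fold lower on PLX3397 (-0.97 ± 0.25, limma adjusted p = 0.0298), while in R6/2 mice the difference was 0.56 ± 0.25 (adjusted p = 0.38) and the interaction 1.53 ± 0.35 (adjusted p = 0.0208). On PLX3397 it was 1.97-fold higher in R6/2 than in WT mice (0.98 ± 0.25, adjusted p = 0.0128), and on vehicle the difference was -0.55 ± 0.25 (adjusted p = 0.217).

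The correlation of Gabpa with the GC index was r = -0.946 over the 12 libraries. Adjusted for GC and length its differences were -0.25 (limma adjusted p = 0.244) for the drug in WT mice, 0.30 (adjusted p = 0.1) between genotypes on PLX3397 and 0.45 (adjusted p = 0.172) for the interaction. The call in WT mice was lost without WT PLX3397 library 1 (adjusted p = 0.0534) or 2 (0.063) or WT vehicle library 1 (0.114) or 2 (0.113), and that between genotypes on PLX3397 without R6/2 PLX3397 library 2 (0.0522) or without libraries 1 and 2 of that group (0.76, adjusted p = 0.216). The interaction was not called without WT vehicle library 1 (0.0591) or 2 (0.0562), R6/2 PLX3397 library 2 (0.052) or R6/2 PLX3397 libraries 1 and 2 (1.31, adjusted p = 0.237). Gabpa and Ppargc1a correlated over the 12 libraries at r = 0.942, at 0.563 after GC and length adjustment and at 0.809 between deviations from group means.

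Tfam, which packs mitochondrial DNA, helps start its transcription and is the shared target of NRF1 and GABP, was the steadiest of the 7 genes in the values as deposited. It was at 5.63, 5.46 and 5.36 log2 CPM among the R6/2 PLX3397 libraries, 5.37, 5.39 and 5.23 in R6/2 vehicle, 5.16, 5.57 and 5.47 in WT PLX3397 and 5.37, 5.22 and 5.46 in WT vehicle, from 691 to 1222 reads. All group pairs overlapped. The drug's difference was 0.05 ± 0.13 in WT mice (limma adjusted p = 0.825; 95% interval -0.25 to 0.35) and 0.15 ± 0.13 in R6/2 mice (adjusted p = 0.616; -0.14 to 0.45), and the genotypes differed by -0.02 ± 0.13 on vehicle (adjusted p = 0.952; -0.31 to 0.28) and 0.09 ± 0.13 on PLX3397 (adjusted p = 0.639; -0.21 to 0.38). After GC and length adjustment, the drug's difference in WT mice was 0.44 (adjusted p = 0.0859) and that in R6/2 mice 0.04 (adjusted p = 0.934), and the genotypes differed by 0.11 (adjusted p = 0.617) on vehicle and by -0.28 (adjusted p = 0.163) on PLX3397. Tfam was then no longer the steadiest, at 5.02 to 5.84 log2 CPM over the libraries. Gabpa (4.67 to 5.33), Ppargc1a (4.89 to 5.60), Nrf1 (4.35 to 5.12) and Esrra (5.66 to 6.35) had narrower ranges.

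**Figure D3:**
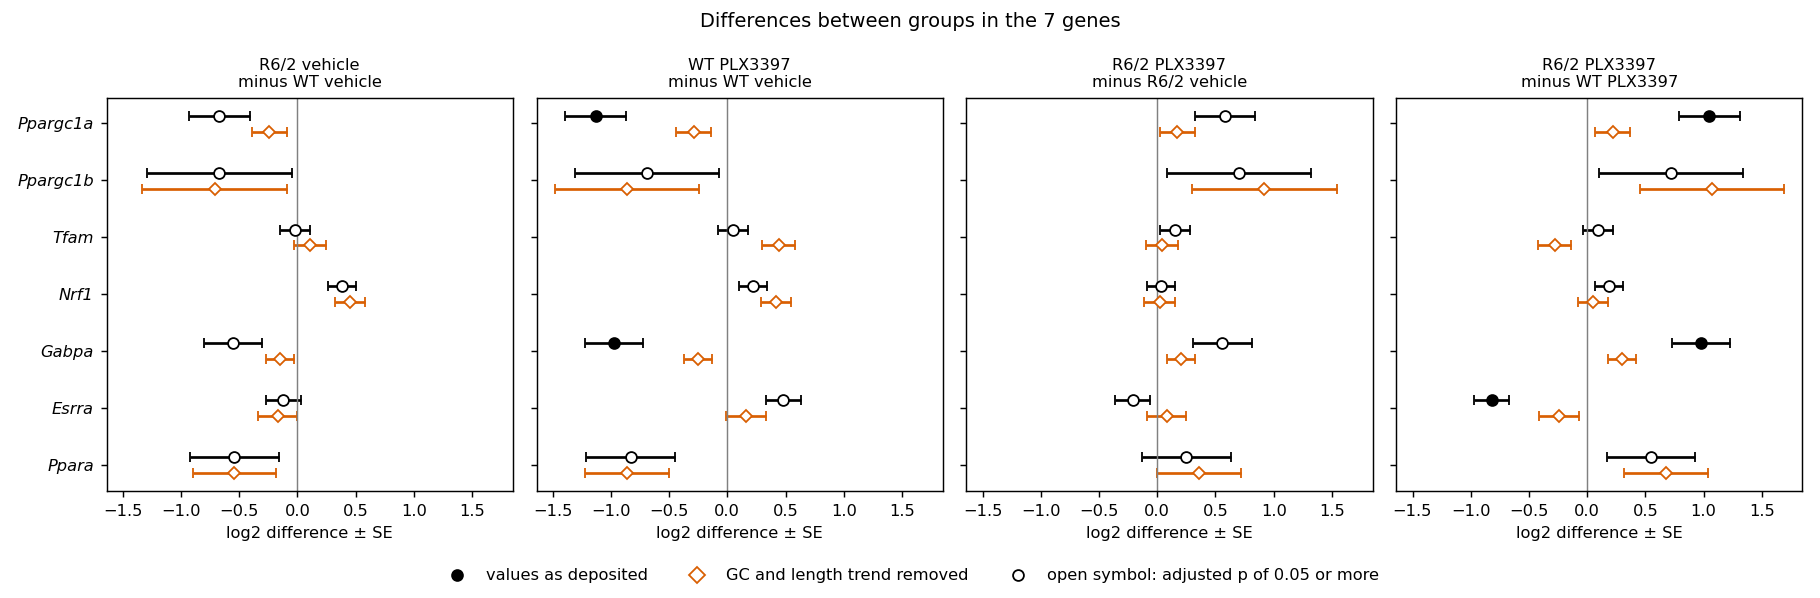
Log2 difference ± SE (horizontal axis) of each gene in the 4 pairs of groups, n = 3 libraries each, with circles for values as deposited, diamonds after GC and length adjustment, and filled symbols for a limma adjusted p under 0.05. Ppargc1a is at -1.13 for PLX3397 in WT mice and at -0.29 after the removal, and no diamond is filled.

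Non-overlap of libraries was common in these data. Between genotypes on vehicle 2 of the 7 genes did not overlap, beside 33.5% of all genes, and on PLX3397 3 of 7, beside 46.8%. For the drug in WT mice 4 of 7 did not overlap (Ppargc1a, Nrf1, Gabpa and Esrra), beside 36.1%, and in R6/2 mice 2 of 7 (Ppargc1a and Gabpa), beside 24.1%.

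**Figure D4:**
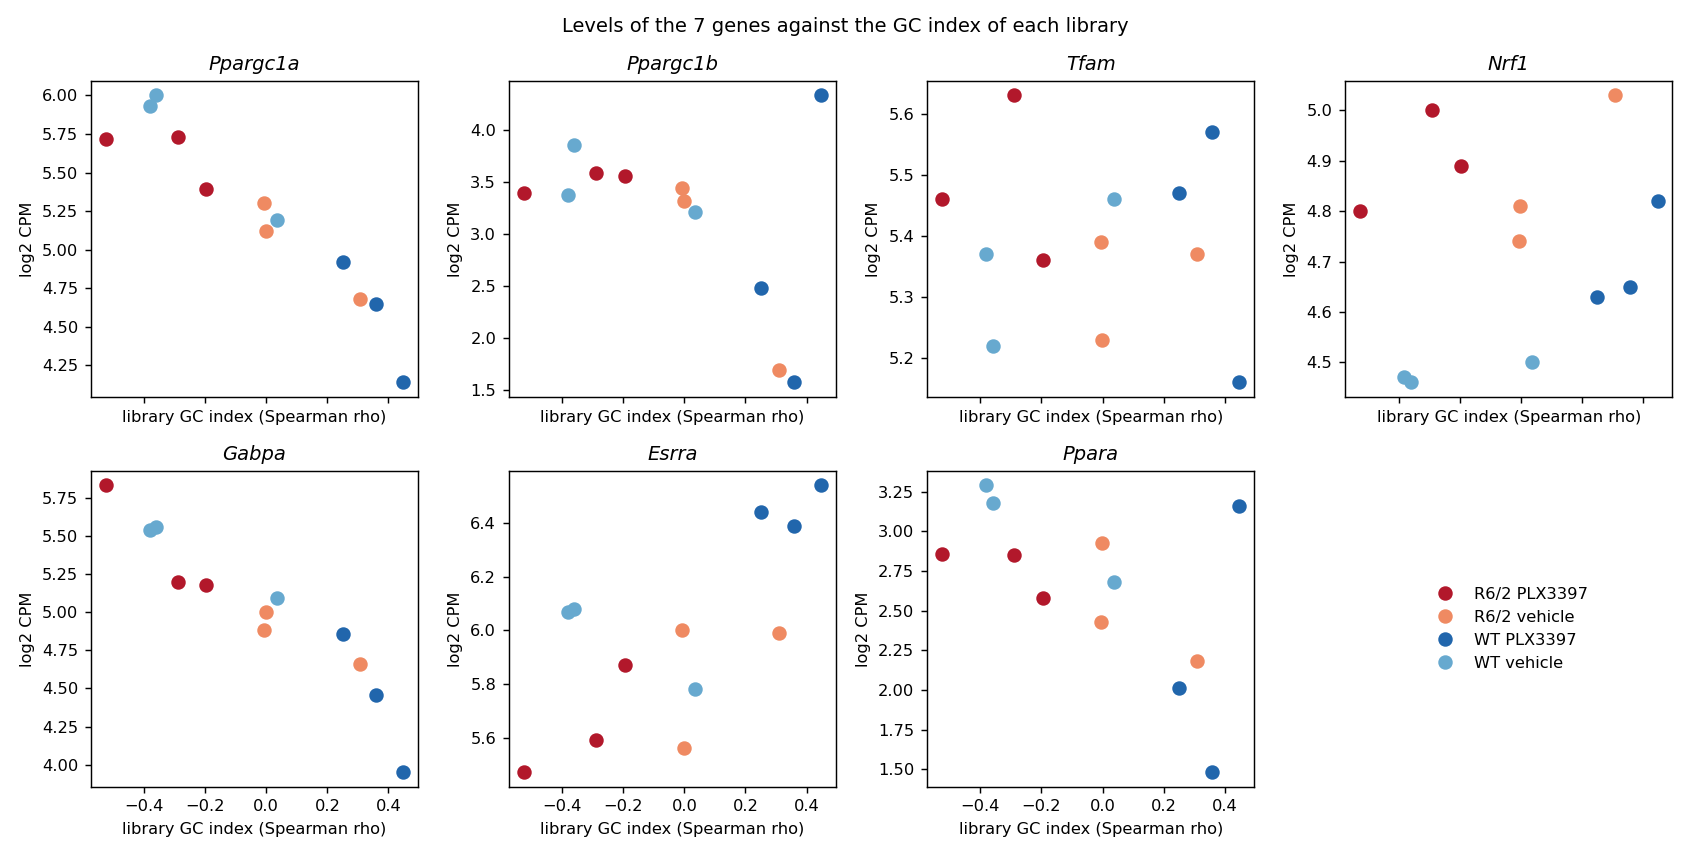
Level of each gene (vertical axis, log2 CPM) against the GC index of the library (horizontal axis, Spearman's rho across genes), 1 point for each of 12 libraries, coloured by group. Ppargc1a and Gabpa fall along the index (r = -0.953 and -0.946), Esrra climbs with it (r = 0.677) and Tfam (r = -0.108) and Nrf1 (r = 0.182) show little slope.

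The genes most like each member were ranked by Pearson's r of log2 CPM over the 12 libraries among 12733 genes with a mean of at least 1 log2 CPM. For Ppargc1a they were Pdzd8 (r = 0.974), Cdc42bpa (0.973) and Ptprd (0.972), and for Gabpa Rsbn1l (0.991), Shprh (0.99) and Dcc (0.988). These 6 genes have 41.4% to 46.2% transcript GC. For Ppargc1b they were Cit (0.987), Map3k13 (0.974) and Kpnb1 (0.974), for Ppara Gpc6 (0.955), Gpam (0.954) and Nwd1 (0.934), and for Esrra Ppp2ca (0.96), Slc25a33 (0.956) and Wdyhv1 (0.955). Tfam was most like Nck1 (0.935), Rtbdn (0.91) and Txnl1 (0.892), and Nrf1 most like Acy3 (0.929), Pomt1 (0.926) and Gtf2i (0.911). All of these values share the same 12 libraries.

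The counts of genes in lists around the 7 regulators are read against 14.2% of all genes called for PLX3397 in WT mice and 35.0% between genotypes on PLX3397 (6.77% and 24.0% after GC and length adjustment). Partners and modifiers of the PGC-1 coactivators, a list of 22 genes, had calls in both directions. For PLX3397 in WT mice 2 were higher and 5 lower, with a list median of -0.35, and between genotypes on PLX3397 7 were higher and 4 lower in R6/2 mice, with a median of 0.24. After adjustment 0 were called for the drug in WT mice by limma (median -0.04), and 3 were higher and 1 lower between genotypes (median 0.24). Without single libraries 0 to 10 were called for the drug in WT mice and 7 to 10 between genotypes. Esrrg, the neuronal relative of ERRα, was at 5.77, 5.27 and 5.66 log2 CPM among R6/2 PLX3397 libraries, 4.29, 5.57 and 4.76 in R6/2 vehicle, 3.49, 3.53 and 4.02 in WT PLX3397 and 5.45, 6.01 and 4.88 in WT vehicle, so WT PLX3397 libraries were below all others. It was lower on PLX3397 in WT mice (-1.77 ± 0.34, limma adjusted p = 0.0134) and higher in R6/2 than in WT mice on PLX3397 (1.89 ± 0.34, adjusted p = 0.00284). Once adjusted for GC and length these were -1.06 (adjusted p = 0.059) and 1.19 (adjusted p = 0.0177). The call in WT mice was lost without WT vehicle library 1 (0.0632) or 2 (0.0634), and that between genotypes without R6/2 PLX3397 libraries 1 and 2 (1.98, adjusted p = 0.0801).

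Prkaa1, the catalytic subunit of the energy sensor AMPK, which phosphorylates PGC-1α, was 0.98 ± 0.13 higher in R6/2 than in WT mice on PLX3397 (limma adjusted p = 0.000722) and 0.64 lower on PLX3397 in WT mice (-0.64 ± 0.13, adjusted p = 0.0152). Adjusted for GC and length, these were 0.30 (adjusted p = 0.263) and 0.12 (adjusted p = 0.718), the second with the opposite sign, and the call in WT mice was lost without WT vehicle library 1 (0.0682) or 2 (0.072). That call was also lost in a separate limma fit of the WT libraries alone (adjusted p = 0.0763). Rxrb, a retinoid X receptor that pairs with PPARα, was lower in R6/2 than in WT mice on PLX3397 (-0.76 ± 0.12, adjusted p = 0.00134; -0.27 and 0.112 after adjustment). Without R6/2 PLX3397 libraries 1 and 2, these differences on PLX3397 were 0.94 (adjusted p = 0.0581) for Prkaa1 and -0.54 (adjusted p = 0.091) for Rxrb. Averaged over drug, 2 of the 22 partners and modifiers were higher and 3 lower in R6/2 mice (median 0.15), beside 22.4% of all genes called. After adjustment 4 were higher and 2 lower (median 0.2), beside 27.2%. Perm1, a muscle-enriched regulator that PGC-1α and ERRα induce, was lower in R6/2 mice averaged over drug. It had 1.99, 1.75 and 1.04 log2 CPM among R6/2 PLX3397 libraries and 1.12, 0.73 and 1.47 in R6/2 vehicle, against 3.05, 2.23 and 2.30 in WT PLX3397 and 2.43, 2.16 and 2.79 in WT vehicle. No R6/2 library reached a WT library, and the difference was -1.14 ± 0.23 (limma adjusted p = 0.00688), called in all 23 alternatives (adjusted p 0.00323 to 0.0201) and at -1.06 after GC and length adjustment.

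Of 24 respiratory genes regulated by NRF1 and GABP, 4 were higher and 0 lower on PLX3397 in WT mice, with a median of 0.48, and 6 were higher after that adjustment (median 0.35). Between genotypes on PLX3397 0 were higher and 12 lower in R6/2 mice, with a median of -0.48, and after adjustment 1 was higher and 9 lower (median -0.14). Between R6/2 PLX3397 and R6/2 vehicle, and between genotypes on vehicle, 0 of 24 were called by limma (medians -0.12 and 0.07). Of all genes only 1.1% and 2.11% were called in these comparisons. Without single libraries 0 to 14 were called for the drug in WT mice and 5 to 13 between genotypes on PLX3397. Alas1, the enzyme that starts haem synthesis, was at 5.60, 5.60 and 5.92 log2 CPM among R6/2 PLX3397 libraries, 6.08, 5.93 and 6.02 in R6/2 vehicle, 6.30, 6.21 and 6.21 in WT PLX3397 and 5.5, 5.69 and 5.73 in WT vehicle. The drug's difference was positive in WT mice (0.60 ± 0.12, limma adjusted p = 0.0136), and the interaction was -0.90 ± 0.17 (adjusted p = 0.0141). Both were called after GC and length adjustment (0.55, adjusted p = 0.00618, and -0.72, adjusted p = 0.0329). The call in WT mice was lost without WT vehicle library 1 (0.0698) or 2 (0.0582), or in a separate fit (0.0611). The interaction was not called with the cortical marker covariate (0.0519) or without R6/2 PLX3397 libraries 1 and 2 (-0.69).

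Of the cytochrome c oxidase subunits, Cox6c was lower in R6/2 than in WT mice on PLX3397 by limma (-0.67 ± 0.15, adjusted p = 0.00713; -0.47 and 0.00409 after adjustment), and so was Cox5b (-0.71 ± 0.16, adjusted p = 0.00769; -0.35 and 0.0225). With R6/2 PLX3397 library 3 alone in its group these were -0.63 (adjusted p = 0.164) and -0.77 (adjusted p = 0.119). Averaged over drug, 0 of the 24 respiratory genes were higher and 2 lower in R6/2 mice (median -0.19), beside 22.4% of all genes called. After adjustment 2 were higher and 5 lower (median -0.04), beside 27.2%. Tomm70a, an import receptor of the mitochondrial outer membrane, was lower in R6/2 mice averaged over drug (-0.71 ± 0.17, limma adjusted p = 0.0143), and after adjustment by 0.87 (-0.87, adjusted p = 0.00204). The call was lost only without R6/2 PLX3397 libraries 1 and 2 (-0.76, adjusted p = 0.0681) among the 23 alternatives.

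Genes that keep and transcribe mitochondrial DNA were 20 in number beside Tfam. For PLX3397 in WT mice 2 were higher, with a median of 0.13, and between genotypes on PLX3397 2 were lower in R6/2 mice, with a median of -0.10. After adjustment 2 were higher (median 0.28) and 3 were lower (median -0.15) in these comparisons. As deposited, both times they were Lonp1, the matrix protease that degrades TFAM, and Polrmt, the mitochondrial RNA polymerase. Lonp1 differed by 0.60 ± 0.11 (limma adjusted p = 0.00991) and by -0.39 ± 0.11 (adjusted p = 0.0166), and Polrmt by 0.47 ± 0.11 (adjusted p = 0.0259) and -0.40 ± 0.11 (adjusted p = 0.0215). After GC and length adjustment the difference of Lonp1 in WT mice was called (0.39, adjusted p = 0.0126), that of Polrmt was 0.27 (adjusted p = 0.0811), and those between genotypes were 0.03 (adjusted p = 0.828) for Lonp1 and 0.01 (adjusted p = 0.955) for Polrmt. Both calls in WT mice were lost without WT vehicle library 1 (0.0581 and 0.103) or 2 (0.0572 and 0.106), and both between genotypes without R6/2 PLX3397 library 1 (0.0633 and 0.07) or 2 (0.0533 and 0.0798). In a separate limma fit of the groups compared, neither gene was called in WT mice (adjusted p = 0.0563 and 0.103) or between genotypes (0.0615 and 0.0942). Polrmt was also not called in WT mice with a replicate block (0.0546).

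Of 22 measured genes in a list drawn up for fatty acid oxidation and PPARα, 1 was higher on PLX3397 in WT mice (median 0.16). Between genotypes on PLX3397, 2 were lower in R6/2 than in WT mice (median -0.08). Whether PPARα regulates each listed gene, Cpt1c among them, was not tested. After adjustment 0 were called for the drug in WT mice by limma (median 0.05), and 2 were higher and 1 lower between genotypes, with the median on the other side of 0 (0.15). Acaa2, the mitochondrial thiolase, was lower in R6/2 mice on PLX3397 (-0.99 ± 0.23, limma adjusted p = 0.00785; -0.55 and 0.0311 after adjustment). Cpt1c, the brain form of carnitine palmitoyltransferase, was higher on PLX3397 in WT mice (0.58 ± 0.14, adjusted p = 0.025; 0.35 and 0.0646 after adjustment). The call of Cpt1c was lost without WT PLX3397 library 2 (0.0659) or WT vehicle library 1 (0.108) or 2 (0.105). It was also lost with a replicate block (0.0522) or in a separate fit (0.0984). That of Acaa2 was lost without R6/2 PLX3397 libraries 1 and 2 (-1.21).

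Antioxidant and uncoupling genes of mitochondria, a list of 13 that PGC-1α is known to induce in part, had 3 higher on PLX3397 in WT mice (median 0.38) and 1 higher and 5 lower in R6/2 than in WT mice on PLX3397 (median -0.53). After adjustment 1 was higher (median 0.18) for the drug in WT mice, and 0 were higher and 2 lower between genotypes (median -0.18). Without single libraries 0 to 5 were called for the drug in WT mice and 4 to 8 between genotypes. Txn2, the mitochondrial thioredoxin, was lower in R6/2 mice on PLX3397 (-0.69 ± 0.11, limma adjusted p = 0.00182; -0.50 and 0.0135 after adjustment). The glutathione peroxidases Gpx1 (-0.93 ± 0.14, adjusted p = 0.00134) and Gpx4 (-0.88 ± 0.16, adjusted p = 0.00321) were lower too, at -0.24 (adjusted p = 0.25) and -0.18 (adjusted p = 0.234) after adjustment. Averaged over drug, 0 of the 13 were higher and 4 lower in R6/2 mice (median -0.25), beside 22.4% of all genes called. After adjustment 0 were higher and 1 lower (median -0.08), beside 27.2%. Slc25a14, the brain uncoupling protein UCP5, was lower in R6/2 mice averaged over drug (-0.45 ± 0.09, limma adjusted p = 0.00779) and called in all 23 alternatives. Of 10 fusion and fission genes, 2 were higher in R6/2 than in WT mice on PLX3397, the mitofusin Mfn1 (0.97 ± 0.16, limma adjusted p = 0.00195; 0.59 and 0.0348 after adjustment) and the fission GTPase Dnm1l (1.21 ± 0.37, adjusted p = 0.028; 0.59 and 0.107). After adjustment 1 of the 10 was called there. Dnm1l was not called without R6/2 PLX3397 library 1 (0.0681) or 2 (0.0949), and Txn2, Gpx1, Gpx4 and Mfn1 were not called without both (adjusted p 0.0585 to 0.114).

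The 4 genes that depend on PGC-1α in mouse interneurons (Pvalb, Syt2, Cplx1 and Nefh) included 0 called by limma in any comparison. Of all genes 1.1% to 35.0% were called, depending on the comparison. Nefh, the heavy neurofilament, had the smallest p, at a difference of -0.73 ± 0.28 for PLX3397 in WT mice (limma adjusted p = 0.096) and of 0.75 ± 0.28 between genotypes on PLX3397 (adjusted p = 0.0591). The second was called after GC and length adjustment (1.08, adjusted p = 0.0278) and without WT PLX3397 library 2 (0.0356) or R6/2 vehicle library 3 (0.0425). The 6 striatal interneuron markers summed to 155 to 187 CPM in R6/2 PLX3397, 131 to 176 CPM in R6/2 vehicle, 296 to 502 CPM in WT PLX3397 and 330 to 343 CPM in WT vehicle libraries, and their part in these values was not tested.

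**Figure D5:**
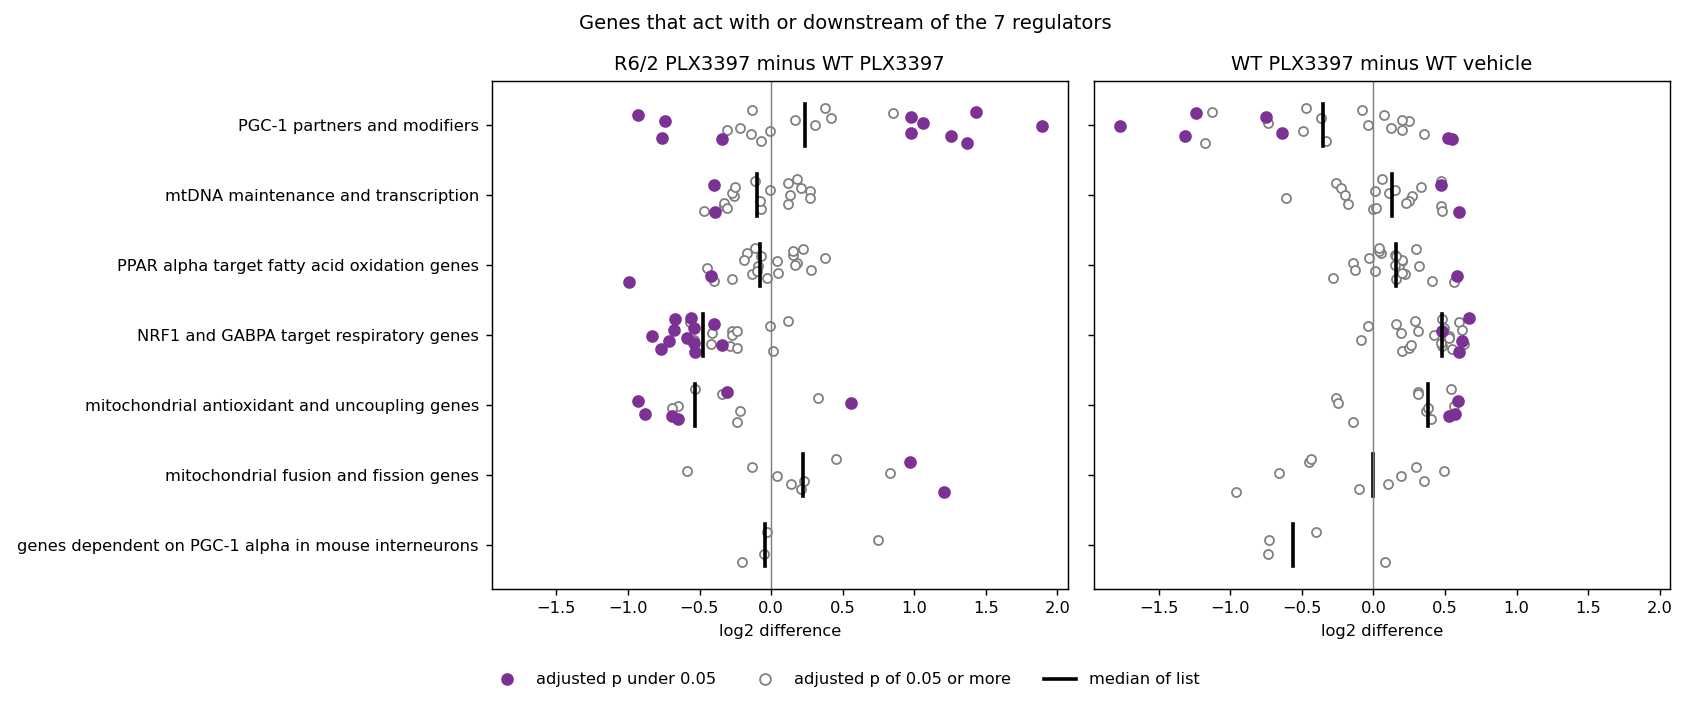
Log2 difference (horizontal axis) of every measured gene in 7 lists around the 7 regulators, for R6/2 PLX3397 minus WT PLX3397 and for WT PLX3397 minus WT vehicle, n = 3 libraries each, with filled points for a limma adjusted p under 0.05 and a bar at each list's median. Respiratory genes regulated by NRF1 and GABP have medians of -0.48 and 0.48, and PGC-1 partners of 0.24 and -0.35.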

How the data were processed

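Striatal RNA-seq libraries of 12 mice were grouped by the genotype and treatment in the labels. Reads were processed with STAR, featureCounts, edgeR and limma on mm10, per the submitters' processing notes, without versions. The authors deposited 1 table, whose values behave as log2 CPM with a prior of about 2 reads: whole reads were recovered for 100% of values within 0.1 read, 18902120 to 24293208 per library. The log2 values were tested as deposited with limma 3.58.1 (R 4.3.3), using an intensity trend, 1 fit over all 12 libraries and 15397 genes. RefSeq matched 15078 of these genes, and transcript GC content and length were known for 14305 (92.9%). Replicates within a group differed by more than counting noise (chi-square per degree of freedom 15.5 to 149).

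Alternatives were offsets of 1 and 5 CPM, a filter at a mean of 1 log2 CPM, median scaling, each library left out, a replicate block, separate fits, removal of a GC and length trend (splines with 5 degrees of freedom), limma-voom on recovered reads, a cortical marker covariate, libraries high in choroid plexus or low in cortical markers left out, no intensity trend, and, for levels per kb, the longest transcript, which was chosen after seeing the data. All 7 members were named, with up to 3 genes of the smallest p per list and comparison with calls (otherwise up to 2) and the 3 genes most like each member. Members and lists were chosen with earlier results of these data known. The fits were tested on simulated data.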

Additional observations from a re-analysis of the deposited data

Results flagged for a closer look

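The effect of PLX3397 differed between the genotypes by limma's interaction term (its log2 difference in R6/2 mice minus that in WT mice) for 2 of the 7 genes. Of 115 measured genes of the lists around them 16 were called, a share not above the 17.0% called among all genes. The 11 of these named in the text are given here. The interaction was 1.72 for Ppargc1a and 1.53 for Gabpa. Among partners of the coactivators it was 2.46 for Esrrg, 0.99 for Prkaa1 and -0.83 for Rxrb. For Polrmt it was -0.72, for Lonp1 -0.68 and for Cpt1c -0.81. For Cox6c it was -0.75 and for Alas1 -0.90, and for the antioxidant genes Gpx1, Gpx4 and Txn2 it was -0.83, -0.89 and -0.79. After GC and length adjustment, the interactions of Alas1 (-0.72, adjusted p = 0.0329) and Cox6c (-0.54, adjusted p = 0.0417) were called among these 13. Over the 23 alternatives the interaction of Alas1 was called in 21 and that of Cox6c in 10. With the cortical marker covariate neither was called (limma adjusted p = 0.0519 for Alas1 and 0.12 for Cox6c). Groups of 3 mice are too small for a test of single outlying libraries.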

How the results depend on the processing

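Each comparison was refitted under 23 or 24 alternatives. The count of members called for PLX3397 in WT mice (2) was 0 in a separate fit, 0 after GC and length adjustment, 4 without the 2 choroid-high libraries (R6/2 vehicle 1 and WT PLX3397 1) and 0 to 2 without single libraries. Between genotypes on PLX3397 (3) it was 0 after adjustment, 5 without the choroid-high libraries, 0 without the cortical-low libraries (R6/2 PLX3397 1 and 2) and 2 to 5 without single libraries. For the interaction (2) it was 0 after adjustment, 0 with the cortical covariate, 4 without the choroid-high libraries, 0 without the cortical-low ones and 0 to 4 without single libraries. Averaged over drug (2) it was 0 after adjustment, 0 without the cortical-low libraries and 1 to 2 without single libraries. Calls among all genes moved too: the interaction had 2617 as deposited, 368 after adjustment, 235 with the cortical covariate, 2497 without the choroid-high libraries and 0 without the cortical-low ones, and genotypes on PLX3397 had 5389, 3438, 4408, 6046 and 237 in the same order. Without the cortical-low libraries 1 R6/2 PLX3397 library is left, so a smaller group and a change in tissue cannot be told apart there. WT PLX3397 library 1, also low in cortical markers, was kept in that setting. The cause of the shifts in calls was not tested.

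No member's change of sign was of a called value. After adjustment, Tfam was 0.11 between genotypes on vehicle, -0.28 on PLX3397, -0.39 for the interaction and -0.08 averaged over drug, Esrra was 0.08 for the drug in R6/2 mice and Ppargc1a -0.01 averaged over drug. With the cortical covariate, the drug's difference in R6/2 mice was -0.05 for Nrf1 and -0.23 for Ppara, that averaged over genotype was -0.23 for Ppargc1b, and Ppara averaged over drug was -0.02. Without the choroid-high libraries, Tfam was -0.03 between genotypes on PLX3397 and -0.04 averaged over drug, and Ppargc1b -0.66 for the drug averaged over genotype. Without the cortical-low libraries, Esrra was 0.01 for the drug in R6/2 mice, Tfam -0.04 between genotypes on PLX3397, -0.02 for the interaction and -0.03 averaged over drug, and Ppara -0.09 averaged over drug. Averaged over drug, Ppara was -0.01 and -0.03 with offsets of 1 and 5 CPM and Ppargc1b -0.01 with 5 CPM. Without single libraries, Tfam ranged over -0.08 to 0.04 between genotypes on vehicle, -0.03 to 0.17 on PLX3397, -0.03 to 0.17 for the drug in WT mice, -0.02 to 0.19 for the interaction and -0.03 to 0.08 averaged over drug. Esrra ranged over -0.22 to 0.02 between genotypes on vehicle, Nrf1 over -0.02 to 0.12 for the drug in R6/2 mice, Ppargc1b over -0.28 to 0.41 averaged over drug and -0.38 to 0.31 for the drug averaged over genotype, and Ppara over -0.18 to 0.24 averaged over drug. Among called list genes named in the text, these changed sign after adjustment: Prkaa1 was 0.12 for the drug in WT mice and -0.19 for the interaction, and between genotypes on PLX3397 Polrmt was 0.01, Lonp1 0.03 and Cpt1c 0.02. Others, chosen after their values were seen, were Creb1 for the interaction (-0.13) and, between genotypes on PLX3397, Kat2a (0.09), Sdhb (0.06), Uqcrc1 (0.03) and Sod2 (-0.18).

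With a replicate block, the members called stayed at 2 for the drug in WT mice (Ppargc1a adjusted p = 0.0413, Gabpa 0.0476), 3 between genotypes on PLX3397, 2 for the interaction, 2 averaged over drug and 0 in the other 3 comparisons. Same-numbered libraries did not deviate together (r = -0.321 to 0.396 over 18 pairs, 3 over 0.1). Single libraries stood apart in choroid plexus and cortical markers, so these correlations cannot exclude that the numbers pair the mice. Depth limits Ppara and Ppargc1b most, at 62 and 66 reads in their lowest libraries.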
